A study of Drosophila melanogaster with 9 samples.

Results

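The comparison of eye imaginal discs overexpressing PSC with control discs rests on 6 arrays, 3 of each group, out of the 9 in the series. Eye discs are the sheets of larval epithelium from which the compound eyes of Drosophila melanogaster develop, and these came from larvae in the third instar. The groups were PSC overexpression (genotype given as w1118 psc), the rbf1 mutant (rbf1120a Gal4) and control (w1118 Gal4), with 3 arrays described as biological replicates in each. The labels name no Gal4 driver and no PSC transgene, and Gal4 is absent from the PSC genotype as given, so neither where nor when PSC was overexpressed is known from them. Each group has its own genotype as labelled, and what PSC did cannot be told apart from any other difference between those genotypes. The platform was the Affymetrix Drosophila Genome 2.0 Array, and each value is a log2 intensity, on which a difference of 1 is a 2-fold change. A gene was read from 1 probe set, the one with the highest mean over all 9 arrays, which gave 11983 genes. A gene passed where limma, fitted to all 9 arrays, gave an adjusted p under 0.05, and only such genes are said below to have risen or fallen.

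PSC, the product of Posterior sex combs, belongs to Polycomb repressive complex 1, which carries the ubiquitin ligase activity toward histone H2A and compacts chromatin at silenced genes. Polycomb repressive complex 2 methylates histone H3 at the same genes, and the Trithorax group and Brahma complex act in the opposite sense. The best known targets in flies are the Hox genes and other developmental regulators, and in discs also ligands of the JAK/STAT pathway. Loss of the genes Psc and Su(z)2 together is known for overgrowth of discs.

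The arrays read as eye disc in both groups. The eye determination genes ey, so, eya and dac, the proneural gene ato, and the neuronal and photoreceptor genes elav, gl and chp lay between 9.44 and 12.62 on all 6 arrays, and none of these 8 passed. Signal of other tissues varied within both groups. Averaged over 6 salivary glue genes, the level was 9.53, 10.08 and 12.24 on PSC arrays 1 to 3 and 6.52, 13.10 and 13.03 on control arrays 1 to 3, so the groups overlapped. Control 3 stood apart. The mean of 7 genes of the peritrophic matrix, the chitin lining of the midgut, was 10.90 there, against 4.67 and 4.77 on the other control arrays and 4.61 to 4.79 on the PSC arrays. Of the 62 genes that were at least 2-fold lower in PSC discs without passing, 40 had control 3 at least 2-fold above both other control arrays. Signal of the ring gland, which lies beside the brain, was higher on each PSC array than on any control array. The mean of 9 of its hormone synthesis genes was 9.09, 10.42 and 9.69 on PSC arrays and 8.03, 8.86 and 7.56 on control arrays. On rbf1 mutant arrays it was 9.38, 9.08 and 9.85, so the higher signal is not particular to PSC discs. These 9 and the 7 peritrophic matrix genes were chosen after their values were seen. In such bulk RNA, fewer cells of a type and less RNA per cell cannot be told apart.

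Psc itself rose. Its probe set read 12.53, 12.49 and 12.50 on the PSC arrays, against 9.86, 9.86 and 9.80 on the control arrays. The groups lay far apart relative to their spread, with means of 12.50 ± 0.02 in PSC discs and 9.84 ± 0.03 in control discs (SD, n = 3 each). The log2 fold change was 2.67 (SE 0.058, limma adjusted p = 3.12e-07), which is 6.35-fold. An exact two-sided permutation test returned p = 0.1, which is the lowest it can reach with 3 arrays in each group.

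The other measured members of Polycomb repressive complex 1 and its partners did not pass. Sce, the ubiquitin ligase subunit also called dRing, came nearest, at 10.26, 10.36 and 10.26 in PSC discs and 10.10, 9.98 and 10.07 in control discs. Its groups did not overlap, and its difference of 0.24 missed the threshold (limma adjusted p = 0.0714), while it passed when arrays were centred on their medians. Pc, the chromodomain subunit that reads methylated histone H3, differed by 0.04. The SAM domain gene Scm and l(3)73Ah, a relative of Psc, each differed by -0.01. Asx and caly, which encode the complex that removes ubiquitin from histone H2A, differed by 0.09 and 0.05. The genes ph-p, ph-d, Su(z)2 and Kdm2 were not among the genes analysed here. In Polycomb repressive complex 2 and the Pho complex 0 of 10 measured members passed, with the lowest adjusted p at Pcl (-0.19, limma adjusted p = 0.272). In the Trithorax group and Brahma complex 0 of 20 passed, with Iswi at 0.16 and osa at -0.16 nearest (limma adjusted p = 0.184 and 0.199).

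**Figure D1:**
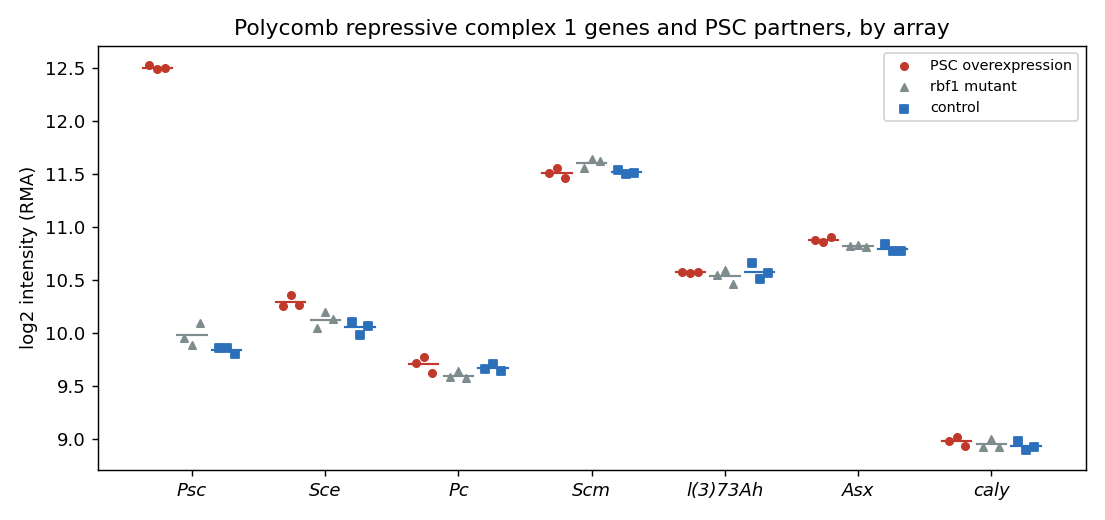
Log2 intensity (vertical axis) of 7 genes of Polycomb repressive complex 1 and its partners, with 3 points per group for the arrays and a line for the group mean, PSC overexpression left, then rbf1 mutant, then control. Psc is 2.67 higher in PSC discs than in control discs, and the other 6 genes lie within 0.24 of control.

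Among all genes, 455 of 11983 passed, a background share of 3.8% for the counts that follow. Of these, 170 rose (1.42% of all genes) and 285 fell (2.38%), so 37.4% of the changes were rises. Most changes were small. Only 24 rises and 39 falls reached 2-fold, with medians of 0.47 for the genes that rose, -0.55 for those that fell and 0.01 over all genes. The count fell whenever 1 of the 6 arrays was left out, which also leaves fewer arrays to estimate the spread. It was 250 without PSC 2, 272 without PSC 1, 277 without control 1 and 289 without control 2, and 192 genes (1.6%) passed with all arrays and also in each of the 6 fits that left out 1 array. Without control 3, the array with the peritrophic matrix signal, 385 genes passed, 131 of them higher and 254 lower. The arrays of the groups did not overlap in 2601 genes (21.7%), so the lack of overlap alone is common here. The gene lists counted below were chosen with earlier results of these data known. A list's share above the background is therefore a description and no test.

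Changes were rare among the dimmest genes. With the genes split by mean level into 4 groups of like size, 0.601% passed in the dimmest, 5.94% and 5.34% in the next groups and 3.304% in the brightest. Of the genes that fell, 25 had a mean below 5 in PSC discs, and 24 of those that rose had a mean below 5 in control discs. The most common low value over all genes was 4.10, and RMA values compress differences near it.

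**Figure D2:**
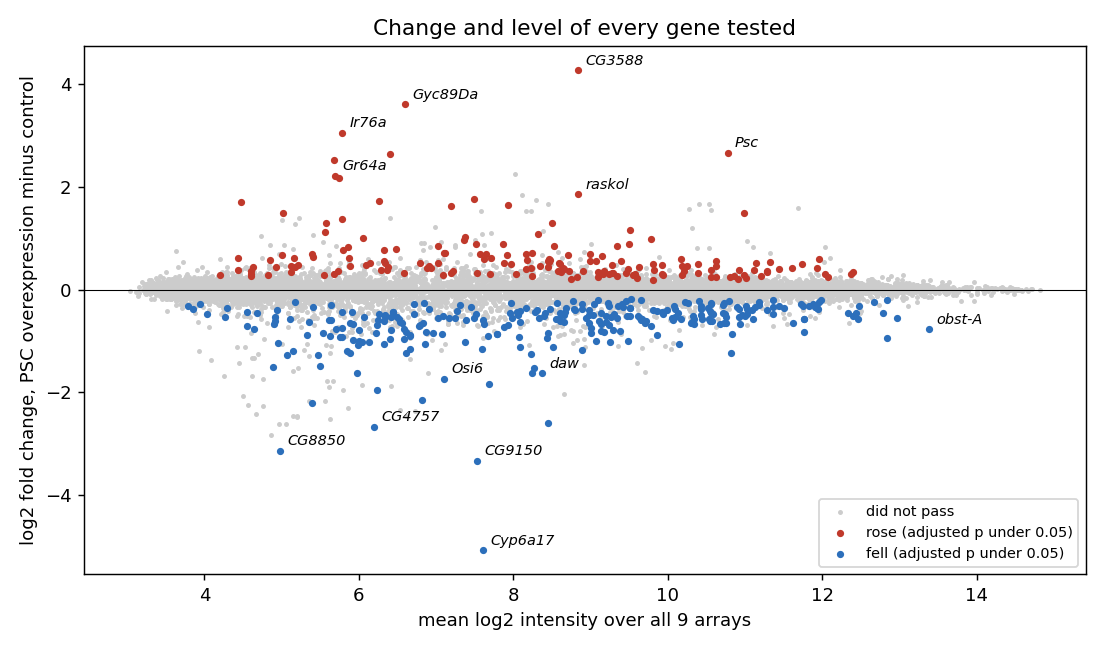
Log2 fold change of PSC overexpression minus control (vertical axis) against the mean log2 intensity over all 9 arrays (horizontal axis), 1 point per gene. Red points are the 170 genes that rose, blue points the 285 that fell and grey points the rest, and the named genes are examples from the text.

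The largest rise was that of CG3588, a gene known by its annotation number alone. It read 9.66, 10.13 and 9.68 in PSC discs and 5.65, 5.57 and 5.42 in control discs, a rise of 4.28 (SE 0.158, limma adjusted p = 3.13e-06). Its second, dimmer probe set differed by 0.22, so its probe sets disagreed. The probe set used read 10.87, 11.15 and 11.37 in rbf1 mutant discs, above the PSC arrays by 1.31 (limma adjusted p = 0.0013), so this rise is not particular to PSC discs.

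The atypical soluble guanylyl cyclase gene Gyc89Da followed. It read 9.14, 9.05 and 9.07 in PSC discs and 5.75, 5.22 and 5.45 in control discs. The groups were separated by over 3 log2 units, and the rise was 3.61 (SE 0.127), or 12.2-fold (limma adjusted p = 2.46e-06). Gyc32E, which encodes a receptor guanylyl cyclase, went the other way. It read 4.82, 4.79 and 4.84 in PSC discs and 6.07, 6.25 and 6.55 in control discs, and fell by 1.48 (SE 0.141, limma adjusted p = 0.00128). These were the 2 of 12 measured genes of guanylyl cyclases and cGMP signalling that passed, and the median of the 12 was 0.01. Both held in every fit without 1 array.

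Chemosensory receptors gave single large changes in families where most members did not pass. Ir76a, of the ionotropic receptor family, read 7.88, 7.82 and 7.71 in PSC discs and 4.78, 4.86 and 4.61 in control discs. It rose by 3.06 (SE 0.084), or 8.32-fold (limma adjusted p = 7.16e-07), and was the 1 of 53 measured family members that passed. The sugar taste receptor gene Gr64a read 6.68, 6.67 and 6.25 in PSC discs and 4.40, 4.11 and 4.46 in control discs, a rise of 2.21 (SE 0.137, limma adjusted p = 0.00011). Its cluster neighbour Gr64f, also a sugar receptor gene, rose by 0.58, a call lost without PSC 3 or control 2 (adjusted p up to 0.0554). Gr61a, another receptor of the sugar group, fell by 0.55 and kept its call without PSC 1 alone (adjusted p up to 0.0888). These were the 3 of 56 gustatory receptor genes that passed. In rbf1 mutant discs Gr64a and Gr64f rose too, by 1.90 and 0.65, and Gr61a fell by 0.91. For none of the 3 did the difference between PSC and rbf1 discs pass. In the odorant receptor family 0 of 57 passed, with Or47a nearest at -0.51 (limma adjusted p = 0.0509). Of 45 odorant binding protein genes, Obp69a fell by 1.23 (limma adjusted p = 0.000106) and Obp49a by 0.45, while Obp19c rose by 0.36. Obp49a lost its call without PSC 1, PSC 3, control 1 or control 2, and Obp19c failed in all 6 fits without 1 array (adjusted p up to 0.0828 and 0.119).

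The 15 largest rises described here, apart from Psc, and the 15 largest falls were taken among genes that passed in all 6 fits without 1 array. Larger changes that missed one of those fits, such as Mal-A1 (-2.15) and dib (1.65), are described with their lists. The other rises of the 15 had varied functions. Root, which encodes the ciliary rootlet protein Rootletin, read 8.73, 8.81 and 8.77 in PSC discs and 6.99, 6.93 and 7.08 in control discs, and rose by 1.77 (SE 0.050, limma adjusted p = 7.53e-07). It was lower in rbf1 mutant discs than in control discs, by 0.28, and the PSC arrays lay above the rbf1 arrays by 2.05 (limma adjusted p = 1.79e-07). raskol, which encodes a Ras GTPase activating protein, read 9.50, 9.52 and 9.48 in PSC discs and 7.66, 7.73 and 7.55 in control discs, a rise of 1.85 (SE 0.057). Its other probe sets lay between -0.42 and 0.08, so the rise was seen in the probe set used alone. The rest of the 15 were CG14419 (2.64), CG17109 (2.52), swi2 (2.18), CG11594 (1.73), CG30289 (1.70), the antiviral gene pst or pastrel (1.48), CG14535 (1.37), the maltase gene Mal-B1 (1.31) and the palmitoyltransferase gene Zdhhc8 (1.30).

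The largest fall, and the largest change of all genes that passed, was that of Cyp6a17, a cytochrome P450 gene known for a part in temperature preference. It read 4.01, 4.20 and 4.02 in PSC discs and 8.996, 9.29 and 9.14 in control discs. The PSC arrays lay at the most common low value, and the fall was 5.07 on the log2 scale (SE 0.125), or 33.6-fold (limma adjusted p = 4.59e-07). In rbf1 mutant discs it read 9.77, 9.34 and 9.74, so PSC discs lay below both other groups. CG9150 read 4.96, 5.05 and 5.42 in PSC discs and 8.59, 8.35 and 8.46 in control discs, and fell by 3.33 (SE 0.127, limma adjusted p = 3.74e-06). CG8850 read 4.12, 3.69 and 3.87 in PSC discs and 7.05, 7.04 and 6.99 in control discs, and fell by 3.13 (SE 0.106). This gene did not separate the altered groups, since rbf1 mutant discs read 3.99, 3.90 and 4.14.

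Further falls of the 15 largest included signalling and cell death genes. daw, or dawdle, which encodes an Activin-like ligand of the TGF-beta superfamily, read 7.82, 7.23 and 7.93 in PSC discs and 9.15, 9.21 and 9.51 in control discs, and fell by 1.63 (SE 0.180, limma adjusted p = 0.00231). Damm, a caspase gene, read 4.33, 4.42 and 4.25 in PSC discs and 5.95, 5.55 and 5.29 in control discs, and fell by 1.26 (SE 0.144, limma adjusted p = 0.00259). Its PSC arrays lay near the most common low value. In rbf1 mutant discs daw fell too, by 1.14, and its difference between PSC and rbf1 discs did not pass (limma adjusted p = 0.140). The others were CG4757 (-2.66), CG4962 (-2.59), CG13032 (-2.20), the Osiris family gene Osi6 (-1.73), CG34338 (-1.63, with its other probe set at 0.09), the cytochrome P450 genes Cyp6d2 (-1.62) and Cyp6a20 (-1.499), the serpin gene Spn42De (-1.53) and CG8170 (-1.24).

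Because both altered groups were set against the same control arrays, the PSC and rbf1 arrays were also compared directly. That comparison called 1266 genes (10.6%), and rbf1 mutant against control called 1226 (10.2%). Of the 15 largest rises, PSC arrays lay above rbf1 arrays in 8 and below them in 2, and in 5 the difference did not pass. Of the 15 largest falls, PSC arrays lay below in 6 and above in 1, and in 8 the difference did not pass. Over all changes, 79 of the 170 genes that rose were higher in PSC than in rbf1 discs and 148 of the 285 that fell were lower. These counts share the PSC arrays with the comparison that chose the genes. Set against control, rbf1 mutant discs also rose in 8 of the 15 largest rises and fell in 11 of the 15 largest falls. Those 2 counts share the control arrays with that comparison. Gyc89Da (3.84), Ir76a (2.997), CG17109 (2.86), Psc (2.53), Root (2.05) and swi2 (1.96) were the rises furthest above rbf1 discs, and Cyp6a17 (-5.54) and CG9150 (-3.85) the falls furthest below.

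**Figure D3:**
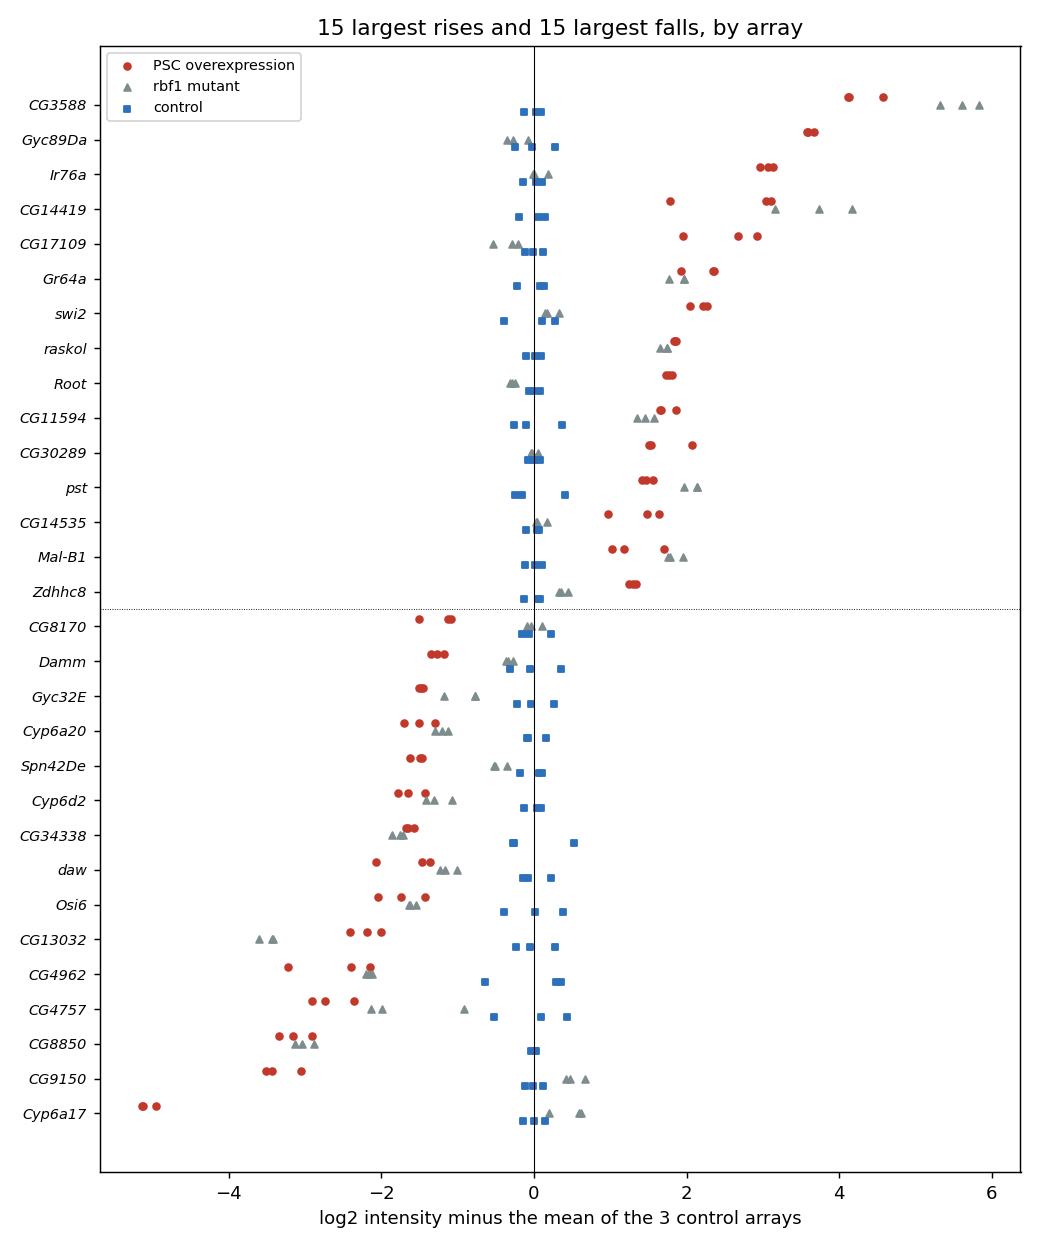
Log2 intensity minus the mean of the 3 control arrays (horizontal axis) for the 15 largest rises (upper rows) and the 15 largest falls (lower rows), with 1 point per array. PSC overexpression (red circles) is drawn above rbf1 mutant (grey triangles) and control (blue squares) within each row. Cyp6a17 and Gyc89Da set PSC discs apart from both other groups, while CG8850 and raskol lie at like levels in PSC and rbf1 discs.

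Genes that metabolise foreign compounds and hormones were among the functions with the most calls. Of 80 measured cytochrome P450 genes with Cyp symbols 9 fell and 2 rose, of 34 glutathione S-transferase genes 6 fell and 1 rose, and of 35 UDP-glucosyltransferase genes 5 fell and 1 rose. The ecdysteroid synthesis genes dib, phtm, sad, shd, spo and spok, cytochrome P450 genes under other symbols, are not among the 80. The counts are 13.8%, 20.6% and 17.1% of the families, beside the background of 3.8%. The medians were -0.04, -0.13 and -0.01, against 0.01 for all genes. The glutathione S-transferase median was the lowest of the 3, with 26 of 34 members below 0, against 46.9% of all genes. Most members of each family did not pass. In the fits without 1 array the 3 families had 7 to 10, 3 to 6 and 3 to 5 calls, genes called in those fits alone included. Cytochrome P450 calls numbered 7 without PSC 1 or control 1. Glutathione S-transferase calls numbered 3 without any single PSC array. UDP-glucosyltransferase calls numbered 3 without PSC 1, PSC 2, control 1 or control 2.

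Within the cytochrome P450 family, Cyp6a17 and its neighbour Cyp6a23 fell by 5.07 and 1.06, and Cyp6d2, Cyp6a20 and Cyp28d2 by 1.62, 1.499 and 0.77. Cyp6d2 read 7.55, 7.43 and 7.78 in PSC discs and 9.07, 9.25 and 9.30 in control discs (limma adjusted p = 0.00023). It fell in rbf1 mutant discs too, by 1.26. The neighbours Cyp4p1 and Cyp4p2 rose instead. Cyp4p2 read 11.94, 11.93 and 11.84 in PSC discs and 11.57, 11.49 and 11.46 in control discs, a rise of 0.40 (limma adjusted p = 0.00795), and in rbf1 mutant discs it fell by 0.62. Cyp6a23, Cyp9b2, Cyp6a13, Cyp4e1 and Cyp4e2 lost their calls in 3 to 5 of the 6 fits without 1 array (adjusted p up to 0.0867). Cyp6a23 failed without PSC 1, PSC 2 or PSC 3, and Cyp9b2 without those, control 1 or control 2. Cyp6a13 failed without PSC 1, PSC 2, control 1 or control 2, Cyp4e1 without any array but PSC 2, and Cyp4e2 without PSC 1 or any control array.

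In the conjugating families GstD9 stood out by rising. It read 10.47, 10.54 and 10.25 in PSC discs and 9.49, 9.51 and 9.30 in control discs, a rise of 0.98 (SE 0.086, limma adjusted p = 0.000741). GstE5 read 7.37, 7.28 and 7.21 in PSC discs and 8.03, 7.98 and 7.95 in control discs, and fell by 0.70 (limma adjusted p = 0.00261). GstE5 rose by 0.52 in rbf1 mutant discs, so the altered groups lay on opposite sides of control. Its neighbour GstE6 fell by 1.03, GstE1 by 0.52, GstT4 by 0.50, GstT3 by 0.47 and GstZ1 by 0.40. Those 5 lost their calls in 2 to 5 of the 6 fits (adjusted p up to 0.0988). GstT4 failed without PSC 1 or PSC 3 and GstZ1 without any single PSC array. GstE1 failed without PSC 2 or any control array, GstE6 without any array but control 3, and GstT3 without any but control 2. Among the glucosyltransferases Ugt302K1 read 9.52, 9.45 and 9.59 in PSC discs and 10.66, 10.38 and 10.68 in control discs, and fell by 1.05 (limma adjusted p = 0.000933). Ugt302C1 fell by 0.53 and Ugt317A1 by 0.50, both in all fits. Ugt35A1 (-1.15), Ugt50B3 (-0.59) and Ugt36A1 (0.41) kept their calls in 1 or 2 of the 6 fits (adjusted p up to 0.119). All 3 failed without PSC 1, PSC 2, control 1 or control 2, Ugt35A1 also without PSC 3 and Ugt36A1 also without control 3.

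Several genes of the apical matrix and cuticle fell. Of 21 measured genes listed as markers of trachea, cuticle and epidermis, 6 fell and 0 rose, which is 28.6% beside the background of 2.38%. The median was -0.26. The list's mean level was 9.24 to 9.32 on the PSC arrays and 9.61 to 9.67 on the control arrays, so the groups did not overlap. The chitin-binding protein gene obst-A, which organises cuticular chitin, read 12.88, 12.81 and 12.86 in PSC discs and 13.59, 13.63 and 13.65 in control discs, and fell by 0.77 (SE 0.050, limma adjusted p = 0.000125). Osi6 read 6.48, 6.17 and 6.79 in PSC discs and 8.22, 7.82 and 8.59 in control discs (limma adjusted p = 0.00281). The zona pellucida domain gene dyl, or dusky-like, read 6.03, 6.02 and 6.04 in PSC discs and 7.04, 6.96 and 6.98 in control discs, and fell by 0.96 (limma adjusted p = 0.00526). In rbf1 mutant discs, Osi6 and dyl fell by 1.60 and 0.82, whereas obst-A differed by 0.05. The calls of Twdlbeta (-1.01), dy or dusky, of the same family as dyl, (-0.59) and obst-B (-0.36) each failed in 5 or 6 of the 6 fits without 1 array (adjusted p up to 0.137). obst-B kept its call without control 3, Twdlbeta without control 1 and dy in none, so that the list had 3 or 4 calls in each fit. The tracheal gene btl, a defining marker, did not pass, at 7.23 to 7.49 in PSC discs and 7.21 to 7.36 in control discs.

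The larger family of 127 cuticle protein and Osiris genes had 3 members that fell and 2 that rose, 3.94% in all, near the background. Cpr51A, at 12.24, 12.19 and 12.09 in PSC discs and 12.72, 12.73 and 12.78 in control discs, fell by 0.57 (limma adjusted p = 0.0018). Cpr65Eb rose by 0.61 and Cpr56F by 0.65, the last with its call lost without control 2 (adjusted p = 0.0572). The share that fell, 2.36%, was near the 2.38% of all genes. Control 3 was high in other chitin genes. The genes obst-F, obst-G and obst-J, of the same family as obst-A, read 8.25, 8.43 and 9.58 on control 3 and 3.56 to 5.18 on the other 5 arrays, and none of the 3 passed. Without control 3, obst-A, dyl and Cpr51A still passed, as did Osi6, which was chosen among the largest falls for passing in such fits.

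**Figure D4:**
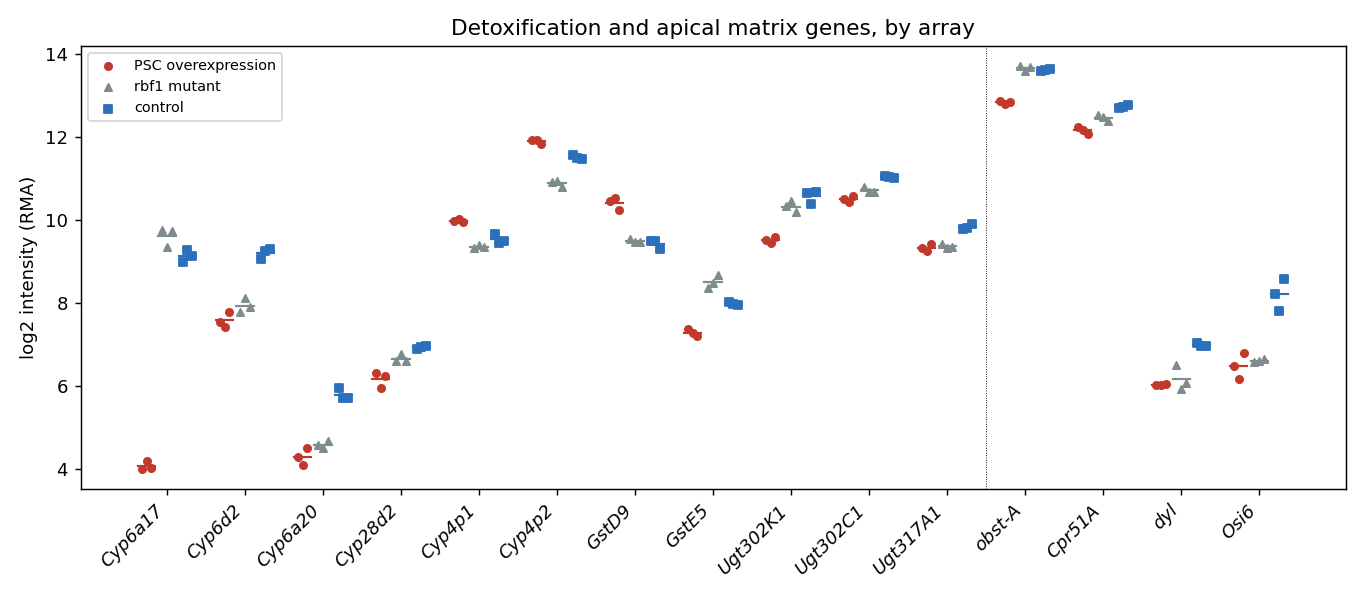
Log2 intensity (vertical axis) of 11 detoxification genes (left of the dotted line) and 4 apical matrix genes (right) that passed in all fits without 1 array, with 3 points per group and a line for the mean, PSC overexpression left, then rbf1 mutant, then control. Cyp4p1, Cyp4p2 and GstD9 are higher in PSC than in control discs, and the other 12 are lower.

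Most known Polycomb targets did not pass. None of the 4 measured Hox genes passed. They lay between -0.25 and -0.15, with Dfd at -0.19 (limma adjusted p = 0.336), pb at -0.25, Scr at -0.25 and Antp at -0.15. Ubx, abd-A, Abd-B and lab were not among the genes analysed here. Of 65 other developmental regulators known as Polycomb targets, 5 fell and 0 rose, 7.69% beside the background of 2.38%. Their median was -0.08, and 43 of the 65 lay below 0, against 46.9% of all genes. Such a lean is not particular to these targets. Below 0 lay 50 of 69 respiratory chain genes and 26 of 34 glutathione S-transferase genes. Other lists leaned up, with 6 of 43 genes of DNA replication and G1/S and 6 of 36 of mitosis and G2/M below 0.

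The 5 regulators that fell have distinct roles. tio, or tiptop, the paralogue of the retinal determination gene tsh, read 6.18, 6.27 and 5.97 in PSC discs and 6.64, 6.82 and 6.68 in control discs, and fell by 0.57 (SE 0.087, limma adjusted p = 0.0102). It alone of the 5 passed in every fit without 1 array. The wing selector gene vg read 5.13, 5.04 and 5.17 in PSC discs and 5.71, 5.54 and 5.86 in control discs, and fell by 0.59 (limma adjusted p = 0.0154). The homeobox gene Dr fell by 0.60, the temporal identity gene chinmo by 0.79 and the neuroblast gene ase by 0.95 (limma adjusted p = 0.0171, 0.019 and 0.0248). In all 5, PSC arrays also lay below the rbf1 arrays, by 0.55 for tio, 0.997 for vg, 0.91 for Dr, 1.04 for chinmo and 1.18 for ase. The other probe sets of chinmo lay between -0.87 and 0.04. The list had 1 call without PSC 1 or PSC 2, 2 without control 1 or control 3 and 4 without PSC 3. Without those arrays adjusted p reached 0.0628 for vg (lost without PSC 1, PSC 2 or control 1), 0.0595 for Dr (without any but control 2), 0.0722 for chinmo (without PSC 1, PSC 2, control 2 or control 3) and 0.0881 for ase (without any but control 2). vg was the 1 of 22 markers of other discs and antenna that passed.

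Growth and patterning pathways gave at most 2 calls each, to be read beside the background of 3.8%. In JAK/STAT signalling 1 of 9 passed (11.1%), chinmo, and the ligand gene upd1 stood at -0.25 and upd2 at 0.09 without passing. In the Hippo pathway 0 of 12 passed (wts 0.09 and ds 0.13 nearest), and in the Notch pathway 0 of 17 (neur 0.18 and mam 0.26). Of 21 genes of the Hedgehog, Wingless and TGF-beta pathways, daw fell by 1.63 and ptc, the Hedgehog receptor gene, by 0.47, which is 9.52% of the list. ptc kept its call in the fit without PSC 2 alone (adjusted p up to 0.0823). In the EGF receptor pathway grk, or gurken, a ligand gene known from the oocyte, read 7.96, 8.03 and 8.11 in PSC discs and 7.49, 7.65 and 7.41 in control discs. It rose by 0.52 (limma adjusted p = 0.0101), the 1 call among 15 genes (6.67%). In rbf1 mutant discs grk rose too, by 0.58.

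Cell cycle genes gave 2 calls. glu, which encodes a condensin subunit, read 10.45, 10.49 and 10.31 in PSC discs and 9.91, 10.06 and 9.80 in control discs. It rose by 0.49 (limma adjusted p = 0.0112), the 1 of 36 genes of mitosis and G2/M that passed, with a median of 0.08 for the list. Orc4, of the origin recognition complex, rose by 0.32 and was the 1 of 43 genes of DNA replication and G1/S that passed, with a median of 0.10. It failed in all 6 fits without 1 array (adjusted p up to 0.134). In rbf1 mutant discs glu and Orc4 rose by 0.92 and 1.26, above PSC discs by 0.43 and 0.94 (limma adjusted p = 0.00889 and 0.000101). Of 17 apoptosis and stress genes, Irbp18, which encodes a basic leucine zipper protein, fell by 0.29 (limma adjusted p = 0.0096).

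Most eye genes did not pass, as in all genes, of which 3.8% passed. Of 12 retinal determination genes tio alone passed (8.33%). In the 14 genes of the morphogenetic furrow and early neurogenesis 0 passed, with gogo at -0.20 and ro at 0.22 nearest (limma adjusted p = 0.140 and 0.183). Of 31 genes of photoreceptor and cone cell differentiation, the phototransduction genes inaC and inaD fell, which is 6.45% of the list. inaC, the eye protein kinase C, read 8.44, 8.48 and 8.56 in PSC discs and 8.91, 8.89 and 9.15 in control discs, and fell by 0.49 (limma adjusted p = 0.0121), a call lost without PSC 1 (adjusted p = 0.0507). inaD, the scaffold that binds it, fell by 0.34 (limma adjusted p = 0.0167), a call lost without PSC 2, PSC 3 or control 1 (adjusted p up to 0.0631). Both fell in rbf1 mutant discs too, by 0.50 and 0.43. The lowest value of the 31 was that of chp, at -0.60. Its groups did not overlap, but it did not pass (limma adjusted p = 0.0947).

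**Figure D5:**
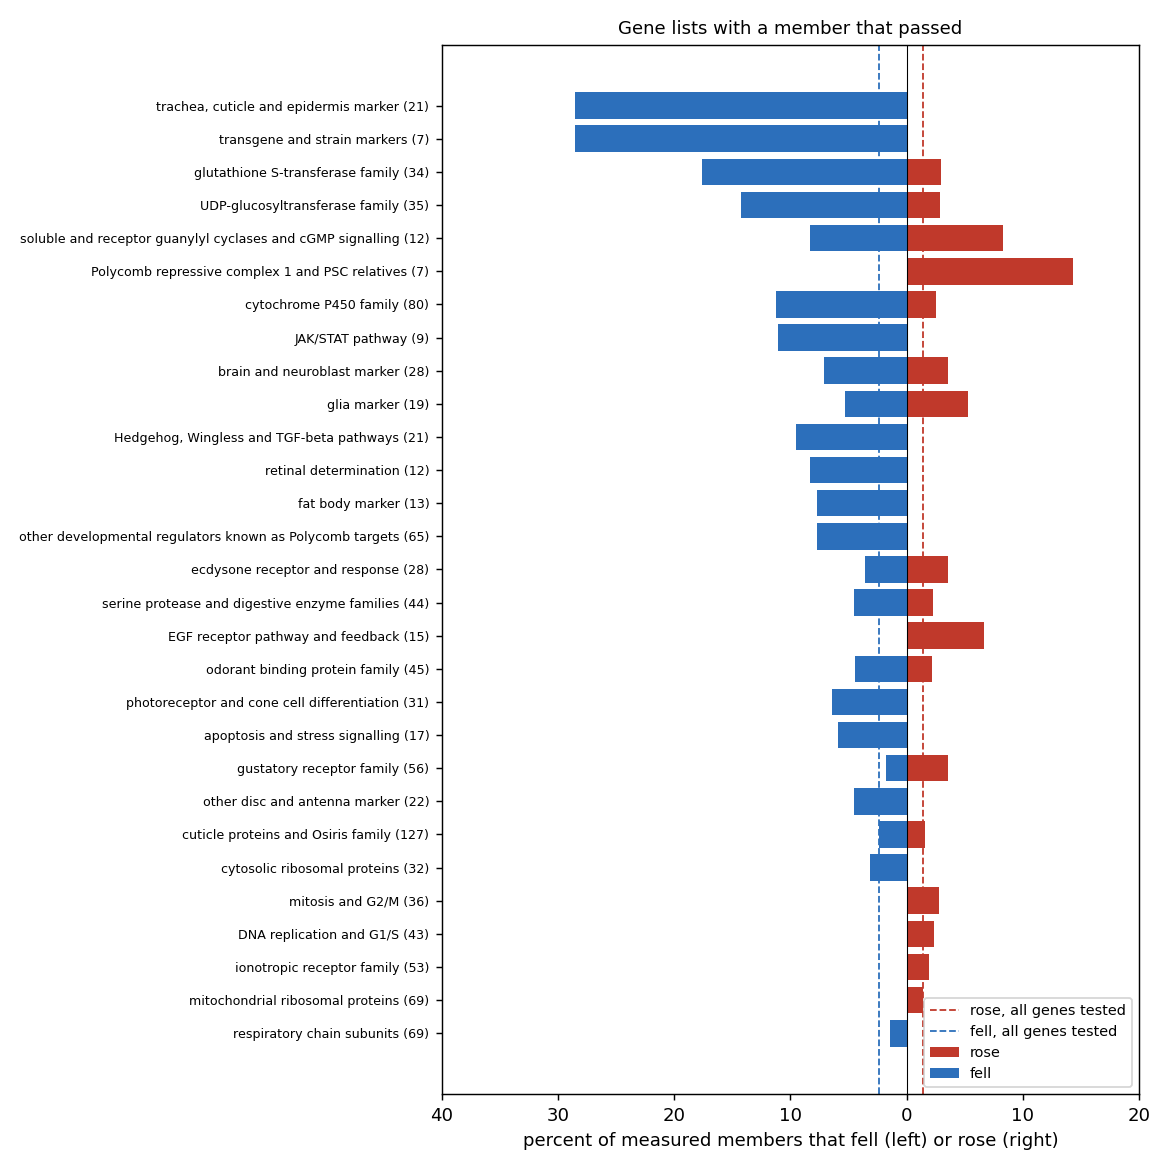
Percent of the measured members (their number in brackets) that fell (bars to the left) or rose (bars to the right) in PSC overexpression against control, for the 29 gene lists with at least 1 member that passed. Dashed lines mark the shares of all genes tested, 2.38% that fell and 1.42% that rose. Lists of few genes reach high shares with 1 or 2 calls.

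The ecdysteroid synthesis gene that passed stood beside higher ring gland signal. dib, or disembodied, a cytochrome P450 gene of that pathway, read 8.06, 9.32 and 8.51 in PSC discs and 6.83, 7.30 and 6.81 in control discs, and rose by 1.65 (SE 0.302, limma adjusted p = 0.0217). The call was lost without PSC 3, control 1 or control 3 (adjusted p up to 0.0765). In rbf1 mutant discs dib rose too, by 1.18 (limma adjusted p = 0.0435). The other 8 ring gland genes, nvd, sro, spok, phtm, sad, GstE14, jhamt and Akh, lay between 0.89 and 1.85 without passing, and the part of that signal in the rise of dib was not tested. The remaining call among 28 ecdysone genes was MsrA, a methionine sulfoxide reductase gene induced by ecdysone, which fell by 0.46 (limma adjusted p = 0.0173) and failed without PSC 2, PSC 3, control 1 or control 2 (adjusted p up to 0.0706).

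Markers of other cell types mostly overlapped between the groups. The mean level of the salivary gland list was 8.18 to 10.97 in PSC discs and 6.50 to 11.65 in control discs (0 of 13 passed). For fat body it was 7.75 to 8.25 in PSC discs and 7.59 to 8.01 in control discs (1 of 13), and for haemocytes 9.66 to 9.91 in PSC discs and 9.55 to 9.85 in control discs (0 of 20). These lists ranged as widely within a group as between the groups. Glia stood at 9.41 to 9.45 in PSC discs and 9.39 to 9.47 in control discs (2 of 19 passed), and muscle at 10.04 to 10.25 in PSC discs and 10.06 to 10.37 in control discs (0 of 16). Brain and neuroblast genes stood at 7.13 to 7.28 in PSC discs and 7.08 to 7.18 in control discs (3 of 28). The list of other discs and antenna was the exception without overlap besides trachea and cuticle, at 8.89 to 8.99 in PSC discs and 9.02 to 9.05 in control discs. The part of these signals in the results was not tested. The glial homeobox gene repo rose by 0.23 and the glial transporter gene Eaat2 fell by 0.43. The neuroblast adaptor gene mira rose by 0.70, while ase fell by 0.95 and the GABA receptor gene Rdl by 0.55. Of these, Rdl passed in all fits without 1 array, Eaat2, mira and ase in 1 and repo in none (adjusted p up to 0.152). Eaat2 held without PSC 1 alone, mira without control 3 alone and ase without control 2 alone. The fat body call was Cyp4e2.

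Housekeeping and stress functions gave few calls. RpS5b was the 1 of 32 measured cytosolic ribosomal protein genes that passed (-0.48), mRpL20 the 1 of 69 mitochondrial ribosomal protein genes (0.39) and ND-B14.5B the 1 of 69 respiratory chain subunit genes (-0.35). RpS5b failed in each of the 6 fits without 1 array, mRpL20 without any but PSC 3, and ND-B14.5B without PSC 1 (adjusted p up to 0.107, 0.094 and 0.0536). Without control 1, 3 respiratory chain genes passed. Among translation initiation factors and proteasome subunits 0 of 40 each passed, with eIF3l at 0.14 and Rpt2 at 0.14 nearest. The count was also 0 of 14 for metallothioneins and metal response (Ctr1A 0.29), 0 of 12 for heat shock and chaperones (Hsp26 -0.46), 0 of 22 for antimicrobial peptides and immune recognition (Dif 0.21) and 0 of 22 for RNA interference and piRNA genes (mael -0.42). It was 0 of 24 for adult testis genes (Taf12L -0.30) and 0 of 3 for histones. The immune list does not hold every immune gene, and some outside it that passed are named below. In the 18 lists where limma called 0 members, 43 of 358 genes (12%) had an unadjusted p under 0.05, against 16.5% of all genes. Outside these functions, 3 of 44 protease and digestive enzyme genes passed (6.82%, beside the background of 3.8%). The maltase genes Mal-A1 and Mal-B2 fell by 2.15 and 0.85 while Mal-B1 rose by 1.31. Mal-A1 lost its call without control 1 and Mal-B2 without PSC 1, PSC 3, control 1 or control 2 (adjusted p up to 0.053 and 0.0707). In rbf1 mutant discs Mal-A1 fell by 1.93 and Mal-B1 rose by 1.83. Of 7 transgene and strain markers 2 passed, which is 28.6% beside the background of 3.8%. The xanthine dehydrogenase gene ry fell by 0.46 and the pigment gene y by 0.31, the last lost without any single PSC array (adjusted p up to 0.0602).

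Most of the changes, 385 of 455, lay outside the 47 gene lists, and 182 of the 455 (40%) were known by an annotation number alone, against 43.5% of all genes. Among the rest, the gluconeogenesis genes were picked after their values were seen. Pepck1, a phosphoenolpyruvate carboxykinase gene, read 10.34, 10.02 and 9.76 in PSC discs and 11.19, 11.37 and 11.26 in control discs, and fell by 1.23 (SE 0.138, limma adjusted p = 0.00244). Its neighbour Pepck2 read 8.07, 8.14 and 8.16 in PSC discs and 8.64, 8.63 and 8.78 in control discs, and fell by 0.56 (limma adjusted p = 0.00128). fbp, the fructose bisphosphatase gene of the same pathway, read 11.17, 11.15 and 11.18 in PSC discs and 11.54, 11.48 and 11.52 in control discs, and fell by 0.35 (limma adjusted p = 0.00285). None of the 3 overlapped between groups, and each passed in every fit without 1 array. In rbf1 mutant discs Pepck2 fell by 0.49, while Pepck1 (-0.12) and fbp (-0.10) did not pass.

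Other named genes outside the lists, likewise picked after their values were seen, also passed in every fit without 1 array. The potassium channel gene SK rose by 1.03, the tachykinin receptor gene TkR86C by 1.01, the Polo inhibitor gene mtrm by 1.12 and the calcium channel gene Orai by 0.51. The clock gene Pdp1 fell by 0.86, the synaptotagmin gene Syt7 by 0.82, the chitin deacetylase gene Cda4 by 0.82 and the DNA repair helicase gene Fancm by 0.66. Oseg2 and Oseg5, of intraflagellar transport, fell by 0.79 and 0.78, and the other genes of that process were not counted. The immune genes Tep4, PGRP-LA and GNBP3, which are not in the immune list counted above, fell by 0.66, 0.63 and 0.57.

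Some of the changed genes lay beside each other in the genome. Of the 455 genes, 71 (15.6%) had a neighbour among the tested genes that also passed, while 7.32% of all genes had such a neighbour. They formed 33 runs of at most 3 genes, and 17 runs held falls alone, 6 held rises alone and the rest were mixed. The runs of 3 were CG11594, Gr64a and Gr64f (1.73, 2.21 and 0.58), Spn42Dc, Spn42Dd and Spn42De (-0.29, -0.46 and -1.53), Cyp4e2, Cyp4e1 and Mal-A1 (-0.60, -0.99 and -2.15), Cyp6d2, CG30196 and CG42565 (-1.62, -0.81 and -0.55), and CG43066, Pepck2 and Pepck1 (0.47, -0.56 and -1.23). Members of 1 family, such as the serpin genes Spn42Dc to Spn42De or Cyp6a17 with Cyp6a23, can share sequence, and the arrays may not separate close copies fully. The calls of Spn42Dc and Spn42Dd failed in 6 and 5 of the 6 fits without 1 array (adjusted p up to 0.110), with Spn42Dd kept without control 3 alone.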

How the data were processed

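The deposited values are log2 intensities of probe sets, made by the authors with RMA (background correction, normalization between arrays and summary of probes) per the submitters' processing notes, with no version given in the sources used here. Array medians lay between 5.83 and 5.92, so nothing was normalized again. Of 18952 probe sets, 183 controls were left out. In the probe annotation, 13647 had 1 gene, 402 several and 4720 none. For 1094 genes with more than 1 probe set the brightest was kept. Of the 11983 gene identifiers, 11894 matched the RefSeq gene table (Release 6 plus ISO1 MT), used for symbols and gene order. limma 3.58.1 (R 4.3.3) fitted 3 group means to all 9 arrays (6 residual degrees of freedom, median SE 0.0753) with Benjamini-Hochberg adjustment and a threshold of 0.05, with no fold minimum. Its p-values weigh each difference of means against the spread between arrays within the 3 groups, the rbf1 mutant included. The number of arrays limits the precision. The steps were tested on simulated data.

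The comparison and the 47 gene lists were chosen with earlier results of these data known. Named genes are Psc, the 15 largest rises and falls that passed in all fits without 1 array and did not overlap, up to 4 members per list with the lowest adjusted p (2 where none passed) and all Polycomb repressive complex 1 members. Other list members that passed, and genes said to be picked after their values were seen, are named beside them. Lists are described by counts and medians, with no set test. Alternatives were centring, a second quantile normalization, a filter on dim genes, the mean of all probe sets, the 6 compared arrays alone, another variance model, a replicate block, the salivary glue mean as a covariate and leaving out each of the 6 arrays. Replicate numbers gave no clear pairing of the arrays (correlations of deviations -0.07, -0.28 and 0.33), which 3 arrays a group cannot settle. Figures used matplotlib 3.10.9.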

Additional observations from a re-analysis of the deposited data

Results flagged for a closer look

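Probe sets that the annotation gives no gene or several genes entered no comparison above. In a separate limma fit of these 5122 sets, 58 passed, 27 of them higher and 31 lower in PSC discs, which is 1.13%. They were flagged because they carry signal outside the genes compared. The largest change was a fall. Probe set 1624819_s_at, with no gene, averaged 7.29 ± 0.34 in PSC discs and 10.81 ± 0.03 in control discs (SD, n = 3 each) and fell by 3.52. Probe set 1631549_s_at, with several genes, averaged 6.26 ± 0.13 in PSC discs and 8.70 ± 0.12 in control discs and fell by 2.44. The largest rises follow. Probe set 1624543_s_at, with no gene, averaged 10.57 ± 0.26 in PSC discs and 7.72 ± 0.02 in control discs and rose by 2.84. Probe set 1627266_at, also with no gene, averaged 6.09 ± 0.64 in PSC discs and 4.08 ± 0.05 in control discs and rose by 2.01. Probe set 1629590_at, with several genes, averaged 6.22 ± 0.07 in PSC discs and 4.37 ± 0.19 in control discs and rose by 1.85. With 3 arrays a group, no single array could be tested as an outlier.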

How the results depend on the processing

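The 15 rises and 15 falls described as largest were chosen for passing in all fits without 1 array, so those fits say nothing of their stability. They kept their direction and call under the other alternatives in which they were tested, and 9 of the 30 are bright enough for the filter on dim genes. Psc kept its call under every alternative. The rise of Psc ran from 2.65 to 2.68. Fewer genes passed when the 6 compared arrays were fitted alone: 275 in all, 98 higher and 177 lower, with fewer degrees of freedom for the spread. Without 1 array 250 to 385 genes passed, 87 to 131 higher and 163 to 254 lower. The direct comparison of PSC with rbf1 discs gave 843 to 1288 genes without 1 array and 967 to 1388 under the others, and the fit of 6 arrays alone cannot give it. Changes in all other settings stayed between 352 and 523 genes. With the replicate number as a block 426 genes passed, 168 higher and 258 lower, though the numbers gave no clear pairing of the arrays. With the salivary glue mean as a covariate 381 passed. Centring moved the split to 194 higher and 250 lower. Sce passed with centring, with the filter on dim genes and with the other variance model. The value of gogo, which did not pass, turned from -0.20 to 0.27 with the mean of all its probe sets, because those disagree. Dim genes near the most common low value limit what can be seen.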
